A study of Bos taurus with 18 samples.

Results

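miR-210 is a single mature miRNA of cattle, taken here from the entry named bta-miR-210 in the library files, and it was read as raw reads per library across all 18 small RNA libraries of rumen papillae. It was 1 of 824 miRNAs left once entries for the same miRNA were merged. The tissue came from 9 ruminally cannulated Holstein cows that were not in milk, sampled on an all-forage diet (FD, 100% forage) and later on a high-grain diet (HG, 65% concentrate). The 4 groups were HG_PHY (grain, supplement labelled PHY, 4 libraries), HG_CON (grain, control, 5 libraries), FD_PHY (forage, PHY arm, 4 libraries) and FD_CON (forage, control, 5 libraries). The sources used here do not state what PHY stands for, how old the cows were, or whether the supplement was already fed at the forage sampling. Every grain sample followed the forage samples in time, so diet and time cannot be told apart, and biopsies of whole papillae mix epithelium with the tissue beneath it.

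miRNAs are short RNAs that guide the silencing complex to partly complementary messenger RNAs and lower their output. miR-210 is known as the miRNA most steadily induced by low oxygen in mammalian cells: the transcription factor HIF1A binds its promoter, and its described targets in human cells include ISCU, a scaffold for iron-sulphur clusters of the respiratory chain, and the ephrin ligand EFNA3. Rumen papillae are folds of stratified epithelium that absorb the short-chain fatty acids of fermentation, which grain feeding makes faster. The question put to miR-210 was whether its level in papillae differed between grain and forage feeding, and between the supplemented and control arms.

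The bovine entry lay on the plus strand of chromosome 29 and spanned 23 nt. A human entry, hsa-miR-210-3p, was placed by the authors at the same site with 22 nt and had the same 48636 reads in all, so the pair was counted as 1 miRNA. The authors' adjusted count was 0.5 of the raw count for each entry, because each read was divided between both names. No entry for the other arm of the hairpin was among the names analysed. In the RefSeq table of assembly ARS-UCD2.0, the gene MIR210 lies inside the span of the protein-coding gene LOC132344225, between PHRF1 and RASSF7 on chromosome 29. No source used here names the build of the files' own positions, so no coordinates are printed.

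The mean level of miR-210 was 287.6 CPM (the usual depth-scaled read count, relative to the counted miRNA reads of the library and scaled by the TMM method), which placed it at rank 118 of 824, and it made up 0.0289% ± 0.00796 of the counted reads (SD, n = 18). Its neighbours in rank were miR-1839 (290.0 CPM) and miR-223, a myeloid miRNA (289.5 CPM), above it, and miR-155, a miRNA of activated leukocytes entered under its human name (287.5 CPM), and the p53-induced miR-34a (286.6 CPM), described in human cells, below it. Between 1311 and 4626 reads were counted for miR-210 per library, out of 5.74 to 15.2 M counted reads and 19.52 to 42.65 M reads in all. Counting error alone was 1.47% to 2.76% of the value, against a spread between libraries of a group of 16.8% to 24.8% (coefficient of variation). The spread between libraries was thus several times the counting error.

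On grain, the CPM of miR-210 in HG_PHY replicates 1 to 4 was 392.2, 263.8, 367.9 and 268.7. In HG_CON replicates 1 to 5 it was 309.0, 464.2, 253.1, 335.9 and 300.5. HG_CON 2 held the highest level of all 18 libraries, and HG_CON 3 the lowest on grain.

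On forage, the CPM in FD_PHY replicates 1 to 4 was 191.8, 205.7, 284.6 and 321.3. In FD_CON replicates 1 to 5 it was 187.6, 285.3, 254.3, 274.9 and 215.9. FD_CON 1 was the lowest of all 18 libraries and FD_PHY 4 the highest on forage, above 5 of the 9 grain libraries.

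**Figure D1:**
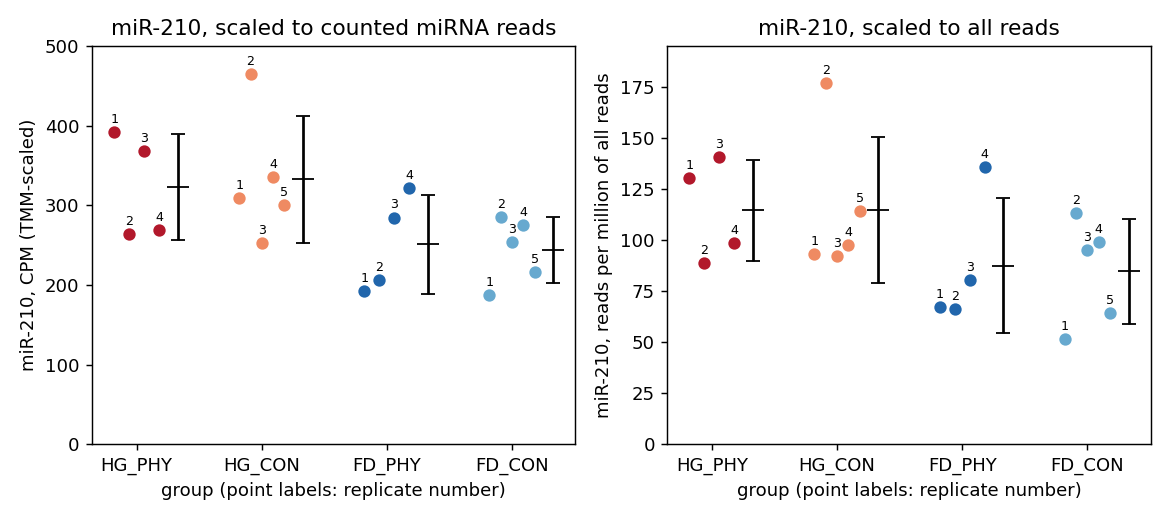
Level of miR-210 in each library, as CPM scaled by TMM (left) and as RPM of all reads (right), with the groups along the horizontal axis. Points are libraries marked by replicate number and bars are mean ± SD; the groups on grain overlap those on forage on both scales, with HG_CON 2 highest at 464.2 CPM and FD_CON 1 lowest at 187.6 CPM.

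The grain libraries averaged 328.4 ± 69.5 CPM and the forage libraries 246.8 ± 48.1 CPM (SD, n = 9 each). All 9 of the 9 grain libraries lay above the forage mean, and 4 of 9 lay above every forage library, while the ranges overlapped. The log2 change averaged over both arms was 0.41 ± 0.14 (SE; 95% interval 0.12 to 0.70), a fold of 1.33. With edgeR's quasi-likelihood test it had an unadjusted p of 0.00803 and an adjusted p of 0.221 (Benjamini-Hochberg over 468 miRNAs), so miR-210 was not called. edgeR called 1 of the 468 miRNAs, miR-320a (0.214%), and 50 had an unadjusted p under 0.05 (10.7%), of which 20 were higher on grain (4.27%) and 30 lower (6.41%). miR-210 ranked 17 by p among the 468, with 6 of those ahead of it higher on grain, and 39 of the 468 had a larger log2 change above 0.

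Taken alone, without regard to the other miRNAs, the grain and forage libraries differed by 0.41 in mean log2 CPM (exact permutation test, two-sided, p = 0.00884 over 48620 arrangements, 0.0442 when adjusted over the 5 comparisons tested this way). This test knows nothing of the 468 miRNAs among which miR-210 was picked. When libraries were left out 1 at a time, the adjusted p of this exact permutation test was above 0.05 in 11 of 18 cases and at most 0.0897. The 11 were those without HG_PHY 1 or 3, HG_CON 1, 2, 4 or 5, FD_PHY 1 or 2, or FD_CON 1, 3 or 5. Both tests treat 18 libraries from 9 cows as independent.

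In control cows, HG_CON averaged 332.5 ± 79.4 CPM and FD_CON 243.6 ± 41 CPM (SD, n = 5 each). Each of the 5 grain libraries was above the forage mean and 4 of 5 were above every FD_CON library, and HG_CON 3 lay within the FD_CON range. The log2 change was 0.45 ± 0.18 (SE; 95% interval 0.06 to 0.83), with an adjusted p of 0.397 by edgeR. HG_CON 2 weighed on it: without that library the log2 change was 0.29. The exact permutation p was 0.0476 before and 0.119 after adjustment, over 252 arrangements that allow 0.00794 at the smallest.

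In cows of the PHY arm, HG_PHY averaged 323 ± 66.5 CPM and FD_PHY 251 ± 62.3 CPM (SD, n = 4 each). All 4 grain libraries were above the forage mean, but 2 of them, HG_PHY 2 and HG_PHY 4, lay below FD_PHY 3 and FD_PHY 4. The log2 change was 0.37 ± 0.21 (SE; 95% interval -0.07 to 0.80), with an adjusted p of 0.810 by edgeR. The exact permutation p was 0.171, where 70 arrangements allow 0.0286 at the smallest.

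The size of the diet difference was close in both arms, and the test of the difference itself did not pass. The interaction, the PHY diet effect minus the CON diet effect, was -0.08 ± 0.28 on the log2 scale (SE; 95% interval -0.66 to 0.49; adjusted p = 0.997 by edgeR). The interval is wide enough to hold differences larger than the diet effect of either arm.

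Between arms, the levels lay close together on each diet. On grain, HG_PHY and HG_CON differed by -0.04 ± 0.20 on the log2 scale (SE; 95% interval -0.45 to 0.37; adjusted p = 0.970 by edgeR). On forage, FD_PHY and FD_CON differed by 0.04 ± 0.20 (SE; 95% interval -0.37 to 0.45; adjusted p = 0.966 by edgeR). The sign of both depended on which library was left out. In order of mean level the groups ran HG_CON, HG_PHY, FD_PHY, FD_CON. Of the neighbours in that order, HG_PHY and FD_PHY differed by more than the SD of either in mean CPM, without passing a test, and the other pairs by less.

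edgeR called 0 of 468 miRNAs (0%) in each of these 5 narrower comparisons. Before adjustment, the miRNAs under the 0.05 threshold of edgeR numbered 50 (10.7%) in control cows and 33 (7.05%) in the PHY arm. They numbered 32 (6.84%) between arms on grain, 22 (4.70%) between arms on forage and 10 (2.14%) for the interaction. Of these 5 sets, miR-210 was in that of control cows alone, with an unadjusted edgeR value of 0.0244. DESeq2 called 0 in control cows, 0 in the PHY arm, 2 between arms on grain, 1 between arms on forage and 0 for the interaction, and limma-voom with quality weights called 1 in the PHY arm. The comparisons share libraries, so their values are not independent of each other.

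**Figure D2:**
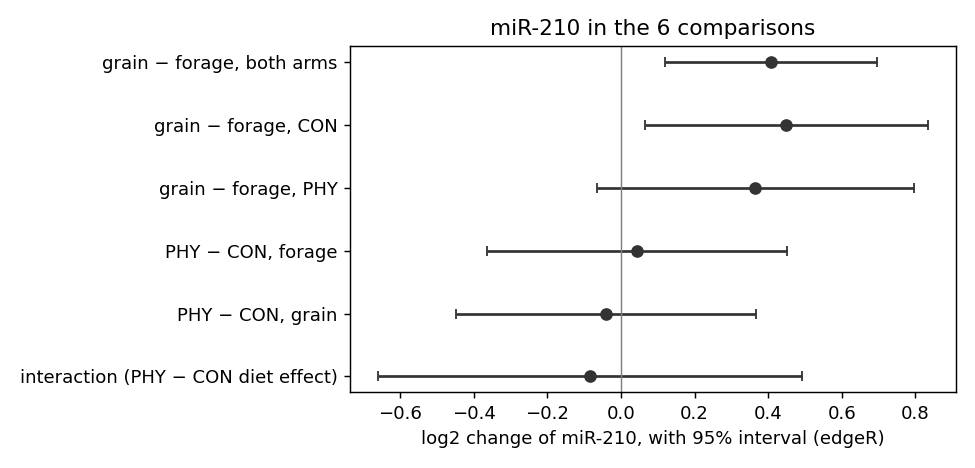
Log2 change of miR-210 in the 6 comparisons (horizontal axis), each with its 95% interval from edgeR. The intervals of grain minus forage over both arms (0.12 to 0.70) and in CON (0.06 to 0.83) lie above 0 before adjustment, and the others include 0.

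Scaled to all reads of the library, miR-210 stood at 114.7 ± 29.5 RPM (the like quantity relative to all reads) on grain and 85.9 ± 27.2 RPM on forage (SD, n = 9 each). With that scale in edgeR the log2 change was 0.41 ± 0.19 (SE) and the adjusted p 0.686. Scaled only by the counted reads, it was 0.52 ± 0.13 with an adjusted p of 0.0907, on a scale where the median of all miRNAs stood at 0.09. The log2 change was above 0 in all 33 alternative fits and lay between 0.33 and 0.52, and the adjusted p was above 0.05 in all 33.

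**Figure D3:**
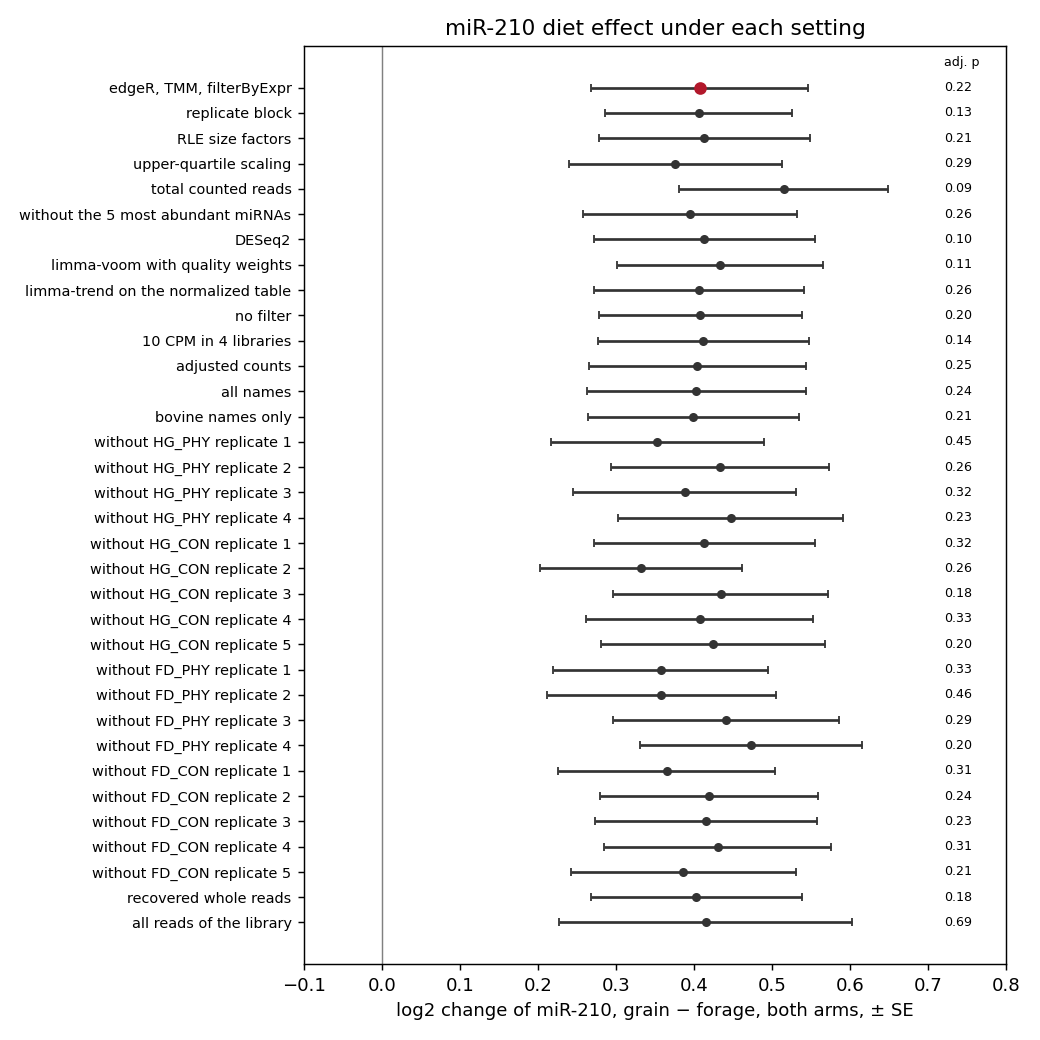
Log2 change of miR-210 between grain and forage over both arms (horizontal axis, ± SE) under the fit reported in the text (red) and each alternative, with the adjusted p at the right. The values run between 0.33 without HG_CON 2 and 0.52 with scaling by counted reads alone, all above 0.

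The number of distinct read sequences assigned to miR-210 was 76 to 128 per library on grain (median 101) and 61 to 122 on forage (median 87). Each distinct sequence was read 29.7 ± 3.54 times in the grain libraries and 25.8 ± 3.03 times in the forage libraries (SD, n = 9 each). Both quantities grow with the reads counted, so they say nothing separate about the level.

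The other miRNAs tied to low oxygen lay on both sides of 0. Some were within 1 SE of it, such as miR-107 (-0.002 ± 0.076) and miR-24 (0.028 ± 0.094), so the signs alone say little. Of 11 miRNAs reported as hypoxia-responsive in mammalian cell lines, all tested, 3 were above 0 and 8 below, with a median log2 change of -0.08 between grain and forage. Over all 468 miRNAs tested, 230 were above 0 and 238 below, with a median of -0.01. Of the 11, 0 were called by edgeR, and 3 had an unadjusted p under 0.05, all lower on grain, against 30 of all 468 (6.41%) in that direction.

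miR-181a, a regulator of lymphocyte signalling, had the lowest p of that list, with 944 ± 264 CPM on grain and 1179 ± 216 CPM on forage (SD, n = 9 each). Its log2 change was -0.38 ± 0.13 (SE), with an adjusted p of 0.221 by edgeR. Its family member miR-181c stood at -0.32 ± 0.13, and miR-23b, counted under the overlapping entry miR-10174-3p, at -0.24 ± 0.10. miR-27a was the fourth by p and differed in sign, at 0.17 ± 0.09. miR-103, which differs from miR-107 by little in sequence, stood at 0.02 ± 0.07. Members of the miR-23, miR-26, miR-103 and miR-181 families share reads, so their values are uncertain.

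Of 9 miRNAs described as acting on HIF1A or on its turnover, 3 were above 0 and 6 below, with a median log2 change of -0.06, against 230 above and 238 below among all 468. edgeR called 0 of the 9, and 1 had an unadjusted p under 0.05, a share near that of all miRNAs (50 of 468, 10.7%). That was miR-199a-5p, described as targeting HIF1A in cardiac cells and abundant in fibroblasts, with 1022 ± 154 CPM on grain and 1220 ± 128 CPM on forage (SD, n = 9 each). Its log2 change was -0.25 ± 0.10 (SE), with an adjusted p of 0.317 by edgeR, and 0 of 9 grain libraries lay above the forage mean. miR-155 stood at -0.20 ± 0.10 and had 267.8 ± 35.1 CPM on grain and 307.2 ± 38.1 CPM on forage. miR-138 (-0.59 ± 0.43) and miR-20b (-0.46 ± 0.35) were scarce, with means under 3 CPM in either diet. miR-424, described in endothelial cells as stabilising HIF1A through cullin 2, stood at 0.20 ± 0.19 with an adjusted p of 0.768.

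**Figure D4:**
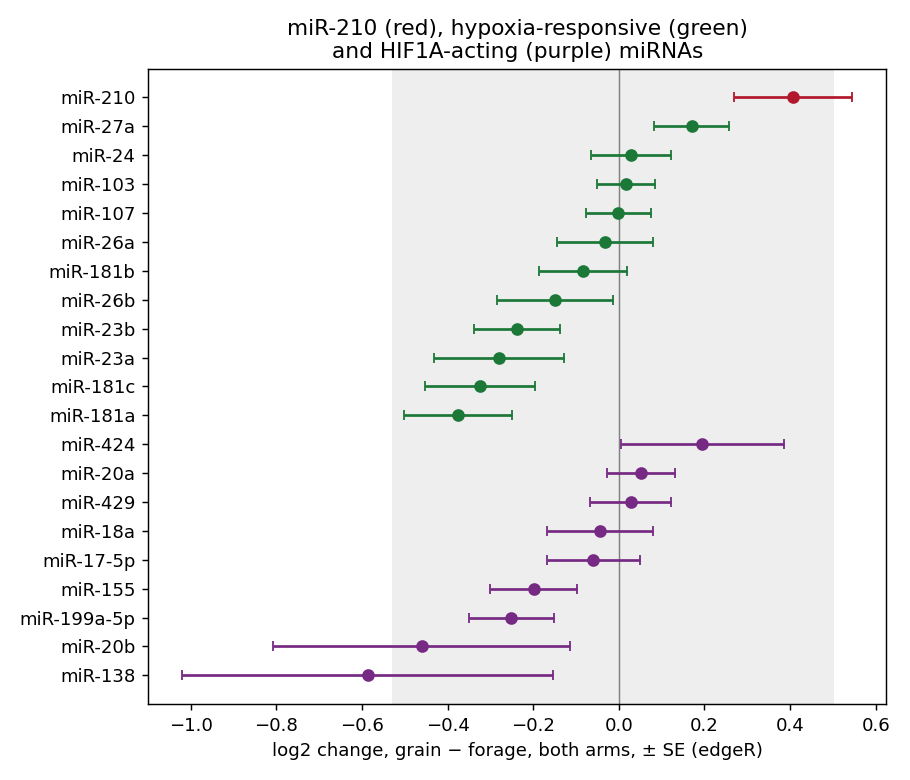
Log2 change between grain and forage over both arms (horizontal axis, ± SE, edgeR) for miR-210 (red), 11 hypoxia-responsive miRNAs (green) and 9 miRNAs acting on HIF1A (purple); the grey band runs between the 5th and 95th percentiles of all 468 miRNAs tested, -0.53 to 0.50. miR-210 lies to the right of all 20 listed miRNAs and inside the band.

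Markers of the cell types in the biopsy differed in level between diets in part, and edgeR called 0 of them. Beside the counts of each list stand those of all 468 miRNAs: 230 above 0 (49.1%) and 238 below, with an unadjusted p under 0.05 for 20 higher on grain (4.27%) and 30 lower (6.41%). Among the epithelial markers, miR-205, typical of stratified epithelia, had 28420 ± 3590 CPM on grain and 28860 ± 3430 CPM on forage (SD, n = 9 each). Of 7 epithelial markers 6 had a value, 4 above 0 and 2 below (1 higher, miR-141, with an unadjusted p under 0.05), and their summed level was 50200 to 69570 CPM on grain and 52550 to 71560 CPM on forage. The ratio of miR-210 to that sum was higher on grain by 0.39 in mean log2 (exact permutation p = 0.00712, adjusted p = 0.0198). In 9 of 9 grain libraries it was above the forage mean of the ratio. The epithelial sum itself differed by 0.02 in log2, so this test nearly repeats that of miR-210 and is no separate support. The ratio was added after the data were seen. In bulk tissue, fewer cells of a type and less RNA per cell cannot be told apart.

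The 4 muscle markers, miR-143 foremost, were below 0 in 4 of 4, and 2 had an unadjusted edgeR p under 0.05. These were miR-143, at -0.52 ± 0.12 with an unadjusted edgeR value of 0.000479 (adjusted p = 0.110), and miR-145, at -0.46 ± 0.15 with an unadjusted edgeR value of 0.00644 (adjusted p = 0.221). Both values are lower than that of miR-210. Their summed level was 102600 to 133000 CPM on grain and 129300 to 297900 CPM on forage, the top value in FD_CON 2. Without FD_CON 2, the log2 change of miR-210 over both arms was 0.42. The fibroblast markers, 4 of 4 below 0 and 2 of them with an unadjusted p under 0.05, summed to 5554 to 8964 CPM on grain and 6187 to 9930 CPM on forage, and both endothelial miR-126 strands, 2 of 2 below 0 and 2 with an unadjusted p under 0.05, to 9452 to 14190 CPM on grain and 13010 to 16160 CPM on forage. Leukocyte markers, 2 of 5 above 0 and 1 of them (miR-223) with an unadjusted p under 0.05, summed to 2827 to 4852 CPM on grain and 3094 to 4507 CPM on forage. No marker that had a value was at 0 in any library. The part of these cell types in the miR-210 difference was not tested.

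Blood is of interest because miR-210 is also made by maturing erythroid cells. The erythroid markers miR-451, miR-486 and miR-144 were above 0 in 3 of 3, against 230 of all 468 (49.1%), with a median log2 change of 0.20 and 0 called by edgeR, and each had an unadjusted p above 0.05. They summed to 6415 to 18350 CPM on grain and 6404 to 14200 CPM on forage. The ratio of miR-210 to that sum differed by 0.22 in mean log2, with 5 of 9 grain libraries above the forage mean (exact permutation p = 0.458, adjusted p = 0.944). The erythroid sum itself differed by 0.19 in mean log2. It varied widely between libraries, at 11550 ± 4780 CPM on grain and 9756 ± 2760 CPM on forage (SD, n = 9 each). The ratio carries this spread and this shift, so its test cannot show what part blood had, which was not tested. Across the 18 libraries, miR-210 and the erythroid sum had a Pearson r of -0.02 and a Spearman rho of -0.15, given as a description. For the sums of the other lists, r was 0.38 (epithelium), -0.21 (muscle), -0.31 (leukocyte), -0.35 (endothelial) and -0.32 (fibroblast). What lies behind these values was not tested.

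The miRNAs whose log2 CPM ran most nearly with miR-210 over the 18 libraries were miR-186 (Pearson r = 0.65, Spearman rho = 0.66), miR-30a-5p (0.64 and 0.66), miR-30e-5p (0.64 and 0.56), miR-339a (0.63 and 0.62) and hsa-miR-374b-3p (0.63 and 0.67). They were picked as the highest of 274 miRNAs with at least 10 CPM, whose median r was -0.01 and whose 95th percentile was 0.55, so no test is given. Once the group means were taken out, r was 0.60, 0.76, 0.52, 0.70 and 0.55 in the same order. Without HG_CON 2 and FD_CON 1, the libraries farthest from the median of miR-210, r was 0.49, 0.40, 0.49, 0.56 and 0.58. Their log2 changes between grain and forage lay between 0.07 and 0.19 and none was called.

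The miRNA that ran most nearly opposite was miR-155, picked as the lowest of the 274, with r = -0.84 and rho = -0.79. As the lowest it was bound to lie beyond the 5th percentile of the 274, which was -0.46, so no test is given. It was followed by miR-222 at -0.58 and miR-214, a fibroblast miRNA, at -0.57. For miR-155, r was -0.90 over the 9 grain libraries and -0.64 over the 9 forage libraries. It was -0.80 with group means taken out, and -0.73 without HG_CON 2 and FD_CON 1. These values come from the same 18 libraries by which miR-155 was picked, so they are no separate support. HG_CON 2, the highest for miR-210, had the lowest miR-155 level, 206.0 CPM, and the highest miR-155 level was 366.7 CPM in FD_PHY 2. For miR-222 the value without HG_CON 2 and FD_CON 1 was -0.26. All these values share the scaling of each library and come from 9 cows, so they describe these libraries only.

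**Figure D5:**
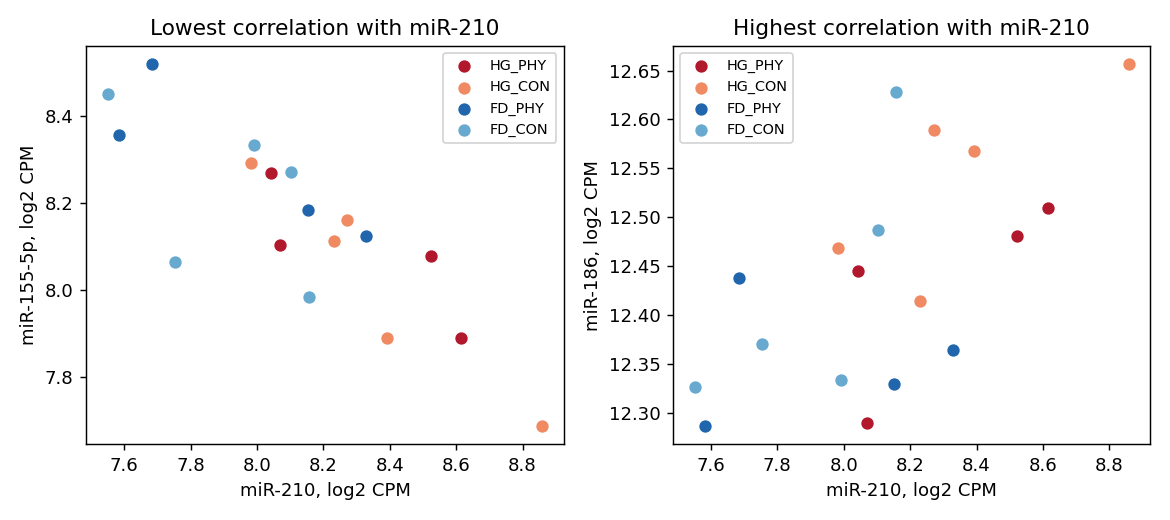
Log2 CPM of miR-155 (left) and miR-186 (right) against log2 CPM of miR-210, 1 point per library coloured by group. miR-155 is lower where miR-210 is higher (r = -0.84) and miR-186 higher (r = 0.65). Over the grain libraries alone r was -0.90 for miR-155 and 0.68 for miR-186. Over the forage libraries alone it was -0.64 and 0.39.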

How the data were processed

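Small RNA was sequenced from rumen papillae in 18 libraries. The kits named in the labels' protocols are NucleoSpin miRNA for extraction and NETflex Small RNA-Seq for library construction. Tools listed, with no role, in the submitters' processing notes are bcl2fastq 2.20 and DESeq2. Aligner, counter and build: not given in the sources used here. The authors, per the file headers, deposited for each name a raw read count, the number of distinct reads, an expected count with reads divided over names and loci, and RPM of all reads. The authors' deposited series table holds a normalized signal, from which 100% of the values came out as whole reads within 0.01. RPM served only to find the read totals.

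The 966 names were merged into 824 miRNAs (same strand and an overlap of 15 nt or more, or the same name in cattle and human with totals within 5%), each represented by its name with most reads. Counts of the 468 miRNAs that passed filterByExpr were tested with edgeR 4.0.16 (R 4.3.3), TMM scaling and 1 mean per group. The test was two-sided, at a threshold of 0.05 after Benjamini-Hochberg adjustment. This step was also run on simulated counts. Those had independent libraries and changes larger than that of miR-210, so they do not cover repeated cows or smaller changes. Alternatives used DESeq2 1.42.0, limma 3.58.1 (for the series table on log2 with a pseudocount of 1), expected counts rounded to whole numbers, other scalings and filters, and each library left out. Replicate pairs differed by 110.6 to 2602 chi-square per degree of freedom, so none was a copy. Each cow gave tissue on both diets, so tests over 18 libraries treat repeated samples as independent. The counting errors given cover counting only, and the 95% intervals rest on the spread between libraries.

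The miRNA, the lists and the tests were chosen with earlier results of these data known. Named miRNAs were miR-210 and its other entries, and the 2 next above and below in level. Also named were the 5 highest and 3 lowest by Pearson r among miRNAs of at least 10 CPM (log2 of CPM). The rule further took the 4 of each hypoxia list with the lowest p. Outside it, miR-320a, miR-103, miR-107, miR-24, miR-424 and the single markers were added after their values were seen. miR-203 of the epithelial list had no value under its bovine name and was not analysed further.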

Additional observations from a re-analysis of the deposited data

Results flagged for a closer look

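The summed level of the muscle markers in FD_CON 2 was 297900 CPM, far above the other 4 FD_CON libraries. It was 1 of 32 sets of 4 or 5 libraries examined for a single distant library, and chance gives about 1 in 20. No level of miR-210 and no number of its distinct sequences stood apart in this way in any group.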

How the results depend on the processing

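The comparison of grain with forage over both arms kept its sign and did not pass the threshold over all miRNAs in any of the 33 edgeR, DESeq2 and limma alternatives. With 1 library left out, the log2 change over both arms lay between 0.332 and 0.473 (adjusted p 0.176 to 0.464), in CON between 0.292 and 0.524 (0.338 to 0.759) and in PHY between 0.248 and 0.504 (0.489 to 0.991). On forage, the PHY minus CON difference lay between -0.089 and 0.172 and was -0.0028 with limma-voom; on grain it lay between -0.149 and 0.136, and the interaction between -0.209 and 0.0799. These small differences changed sign in some of the settings, and the cause was not tested.

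The exact permutation test of both arms gave 0.344 to 0.46 with 1 library left out (adjusted p 0.021 to 0.0897), and 11 of 18 did not pass, with fewer libraries in each. Without HG_CON 3 the CON difference of 0.527 passed (adjusted p = 0.0397); its range was 0.308 to 0.527. Those of PHY lay between 0.258 and 0.506, of PHY minus CON between -0.135 and 0.0935 with grain feeding and between -0.104 and 0.144 with forage feeding. Relative to the epithelial markers (chosen after seeing the data) the CON difference was 0.477 (adjusted p = 0.0198), that of PHY 0.273 (adjusted p = 0.321) and that of PHY minus CON with grain 0.0259. Relative to the erythroid markers, likewise added, both arms together gave 0.223, CON 0.106 in place of 0.44 and the PHY arm 0.369. The adjusted p was 0.944 for each of these exact permutation tests. PHY minus CON gave 0.255 with grain and -0.0084 with forage. The erythroid sum varied widely between libraries, so these ratios cannot show what part blood had.

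The labels do not say that equal replicate numbers mark 1 cow. Same-numbered libraries deviated together with an r above 0.1 in 6 of 9 pairs (0.0151 to 0.42), and 4 of 9 were each other's best match. These values do not settle whether equal numbers mark 1 cow, so pairing by number was used only as an alternative. With the replicate block, edgeR gave miR-210 a log2 change of 0.406 ± 0.12 over both arms (adjusted p = 0.130), 0.437 in CON and 0.374 in PHY, and -0.0622 for the interaction, and called 4 miRNAs in place of 1. The exact sign-flip test of the same-numbered differences, higher on grain in 7 of 9, gave p = 0.0156 (0.0469 adjusted over 3). The count of miRNAs called over both arms was 0 in 21 of the 33 alternatives, 1 in 3, 2 in 4, 3 in 3, 4 in 1 and 5 in 1 (DESeq2). With scaling by counted reads alone the median of all miRNAs in CON stood at 0.17, against -0.02 with TMM, and miR-210 stood 0.47 above it. Fits on only the groups compared were not run for both arms and the interaction, which use all libraries.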

Other observations

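The nearest other entry on chromosome 29 in the files' own positions was miR-2410, 26.3 kb from miR-210 on the same strand. It had 24 reads over all libraries and was seen in 5 of 18, too few to compare with miR-210.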
